A study of Saccharomyces cerevisiae CEN.PK113-7D with 6 samples.

Results

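MICOS, the mitochondrial contact site and cristae organizing system, is a protein complex of the mitochondrial inner membrane. Its 6 yeast subunits are encoded by MIC60, MIC19, MIC10, MIC12, MIC26 and MIC27, and the transcripts of these 6 genes, of 5449 genes measured, are described here. The genes were taken by name, and each probe set was to be chosen by the highest mean signal over the 6 arrays. Each gene had 1 probe set, so no measured value decided between probe sets. The complex was taken up with earlier results of these arrays known, so the adjusted p-values of its genes are not independent support for a direction. Transcripts were measured in the wild-type haploid laboratory strain Saccharomyces cerevisiae CEN.PK113-7D, grown on glucose in chemostats (3 samples, numbered 4, 8 and 9) or in batch culture (3 samples, numbered 1, 2 and 3). In a chemostat, fresh medium flows in and culture flows out at a fixed rate that sets the growth rate; a batch culture gets all its medium at the start. Each sample's total RNA, carrying a biotin label, was read on 1 GeneChip array. The labels say that cells were taken at steady state. They give neither the dilution rate and limiting nutrient nor the phase of the batch cultures.

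The inner membrane of mitochondria is folded into cristae, which hold the respiratory chain and ATP synthase and open to the rim of the organelle through narrow crista junctions. MICOS sits at these junctions, bends the membrane there and ties the inner to the outer membrane through contacts with protein translocases. Its subunits fall into a subcomplex around Mic60 and Mic19 and another around Mic10, Mic26 and Mic27, with Mic12 linking them. Yeast represses respiration on abundant glucose and builds up respiring mitochondria when glucose is scarce, and cristae multiply with them.

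Signals are on a log scale whose base was taken as 2 from the range of the values, 4.95 to 13.3. Over the 6 arrays the signal of the median gene ranged from 7.95 to 7.97, and correlations across genes were 0.995 to 0.999 within chemostat, 0.994 to 0.997 within batch and 0.815 to 0.853 between the groups. Genes are not independent replicates in such a correlation. The array also carries Schizosaccharomyces pombe probe sets. Their 95th percentile, 5.93, stands for background, and all 6 MICOS genes lay above it on every array. Changes are chemostat minus batch on the log2 scale, tested with limma's moderated test and Benjamini-Hochberg adjustment over all genes at a threshold of 0.05. Errors of group means are SDs over 3 arrays, and n = 3 arrays per group throughout. The labels do not say whether the samples of a group came from separate cultures, so the spread behind the p-values may be technical. In RNA from a whole culture, a change in the transcripts of each cell and a change in the share of cells that make them cannot be told apart.

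All 6 MICOS transcripts were higher in chemostat than in batch, and they are given below in 2 tiers, a grouping made after their values were seen. MIC27 and MIC26, which encode the related subunits of the apolipoprotein O family, rose by 0.98 and 0.81 log2 units, or 1.97-fold and 1.75-fold. The other 4 genes rose by 0.37 to 0.46 log2 units, or 1.29-fold to 1.38-fold. The median of the 6 changes was 0.43, against -0.06 over all genes. The count of 6 of 6 higher stands beside 33.6% of all genes called higher, 44.8% called lower and 78.4% called in either direction.

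MIC60 (YKR016W on chromosome XI, also FCJ1 or AIM28) encodes the core subunit that spans the inner membrane and reaches towards the outer membrane. Its signal was 8.964, 8.998 and 9.029 in chemostat samples 4, 8 and 9, against 8.720, 8.472 and 8.659 in batch samples 1, 2 and 3. The groups did not overlap, but batch sample 2 lay lowest and gave MIC60 the widest batch spread of the 6 genes. The means were 8.997 ± 0.033 in chemostat and 8.617 ± 0.13 in batch (SD). MIC60 rose by 0.38 (SE 0.065, adjusted p = 0.000751), a 1.30-fold change with a 95% interval of 1.17-fold to 1.44-fold.

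MIC19 (YFR011C on chromosome VI, also AIM13) encodes the peripheral partner of Mic60 that faces the intermembrane space. Signals were 9.33, 9.24 and 9.25 in the chemostat samples and 8.84, 8.82 and 8.77 in the batch samples. Every chemostat value lay at least 0.40 above every batch value. MIC19 rose by 0.46 (SE 0.043, adjusted p = 1.87e-05), the largest change among the 4 genes of the lower tier.

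MIC10 (YCL057C-A on chromosome III, also MOS1) encodes a small membrane protein that forms oligomers and bends the membrane at the crista junction. Its signal was 11.21, 11.10 and 11.02 in chemostat, against 10.71, 10.75 and 10.75 in batch. The batch samples were nearly level, while chemostat sample 4 stood above samples 8 and 9. MIC10 rose by 0.37 (SE 0.054, adjusted p = 0.000277), the smallest change of the complex.

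MIC12 (YBR262C on chromosome II, also AIM5) encodes the subunit that links the Mic10 and Mic60 sides. Its values were 9.4288, 9.3778 and 9.3691 in chemostat and 9.0662, 9.0003 and 8.8915 in batch. The groups did not overlap, with a gap of 0.30 between the lowest chemostat and the highest batch value. MIC12 rose by 0.41 (SE 0.052, adjusted p = 0.00013).

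MIC26 (YGR235C on chromosome VII, also MOS2) and MIC27 (YNL100W on chromosome XIV, also AIM37) encode a pair of related proteins that associate with Mic10, and Mic27 stabilises Mic10 oligomers. MIC26 stood at 9.61, 9.54 and 9.56 in chemostat, against 8.76, 8.79 and 8.74 in batch, with little scatter in either group. Its change of 0.81 (SE 0.039, adjusted p = 4.66e-07) had a 95% interval of 1.65-fold to 1.87-fold. MIC27 stood at 10.21, 10.14 and 10.08 in chemostat and at 9.10, 9.16 and 9.23 in batch. The lowest chemostat value of MIC27 lay 0.84 above the highest batch value, the widest gap of the 6 genes. MIC27 rose by 0.98 (SE 0.052, adjusted p = 7.5e-07), with a 95% interval of 1.81-fold to 2.14-fold.

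**Figure D1:**
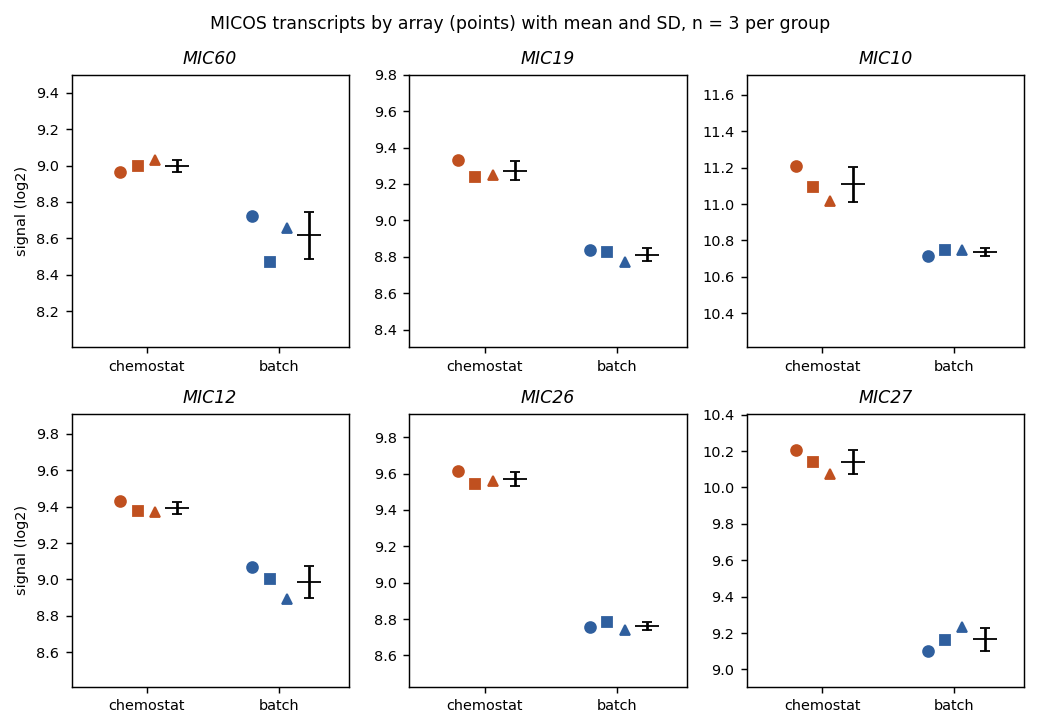
Log2 signal of each MICOS gene on each array (points; circle, square and triangle are chemostat samples 4, 8 and 9 or batch samples 1, 2 and 3), with the mean and SD of 3 arrays beside them; all panels span the same number of log2 units. The groups do not overlap for any of the 6 genes, and the gap is widest for MIC27 (0.84) and MIC26 (0.75).

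The groups did not overlap, with chemostat above batch, for 6 of 6 MICOS genes, and the same held for 35.3% of all genes. A stricter test, limma's treat, asked for a change larger than 1.5-fold. MIC26 (adjusted p = 0.00159) and MIC27 (adjusted p = 0.000301) passed it as higher, 2 of 6 genes, against 11.0% of all genes. The 4 others did not, each with an adjusted p of 1. Among the 5449 genes, MIC27 ranked 456th from the top by its change and MIC26 560th, while MIC19, MIC12, MIC60 and MIC10 ranked 934th, 1041st, 1092nd and 1107th. All 4 genes of the lower tier lay below the median size of a called rise over all genes, 0.47 log2 units, and the upper tier lay above it.

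**Figure D2:**
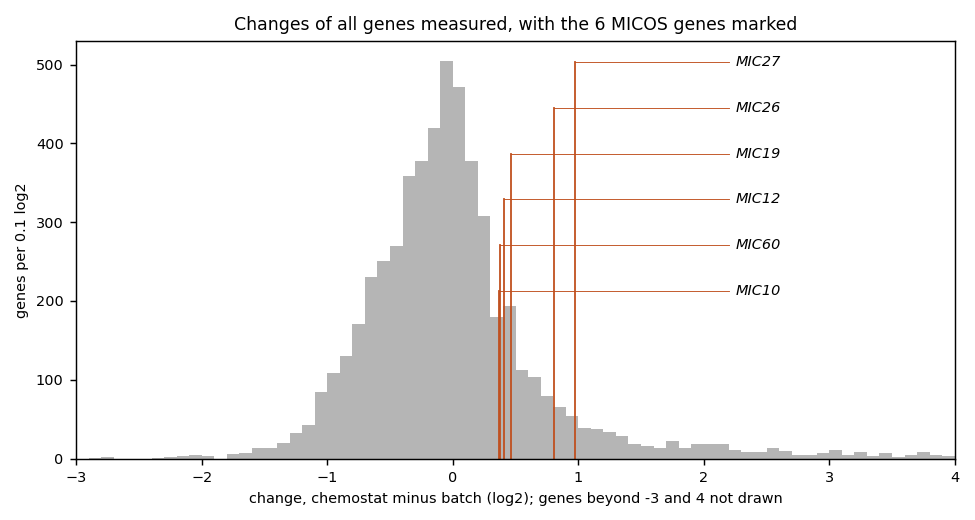
Histogram of the log2 change, chemostat minus batch, over the 5449 genes measured (genes per 0.1 log2 units), with lines at the 6 MICOS genes. The MICOS genes lie on the right flank of the histogram, from 0.37 for MIC10 to 0.98 for MIC27.

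Whether the subunits changed by unequal amounts was tested for 10 pairs of the 15 possible. For this the signal of 1 member was subtracted from every gene on the same array and the difference was fitted with limma over all other genes. The members subtracted were MIC60 and MIC10, the centres of the subcomplexes, and MIC27 for its relative MIC26. Changes differed for 5 of the 10 pairs. Such calls were common, since 82.8% of all genes differed in change from MIC60, 85.7% from MIC10 and 96.3% from MIC27. The noise of the subtracted gene enters every row of such a fit. For MIC60 that gave all rows the same standard error (0.11). A second method, added after the data were seen, took each pair's own spread together with the prior variance of the fit over all genes. All intervals given for pairs of members are from this method, while the adjusted p-values beside them are from the subtracted fit. For MIC26 and MIC27 with MIC60, the pairs called, the second method's unadjusted p-values were 0.000886 and 0.000183, larger than in the subtracted fit. For the 3 pairs with MIC60 that were not called they were smaller.

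MIC27 rose more than MIC60. With the batch mean of their difference set to 0, the MIC27 excess was 0.70, 0.59 and 0.50 on the chemostat arrays, against -0.17, 0.14 and 0.03 on the batch arrays. The 2 changes differed by 0.60 (adjusted p = 8.08e-08), with a 95% interval of 0.39 to 0.80 from the added method. For MIC26 the excess over MIC60 was 0.51, 0.40 and 0.39 in chemostat and -0.11, 0.17 and -0.06 in batch. That difference was 0.43 (adjusted p = 0.000116, interval 0.24 to 0.62).

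The same split appeared against MIC10. MIC27 exceeded MIC10 by 0.57, 0.61 and 0.63 on the chemostat arrays, against -0.04, -0.01 and 0.05 on the batch arrays, again with the batch mean set to 0. The 2 changes differed by 0.60 (adjusted p = 3.83e-06, interval 0.48 to 0.73). MIC26 exceeded MIC10 by 0.44 (adjusted p = 8.11e-05, interval 0.30 to 0.57). Between the related genes themselves, MIC26 rose less than MIC27 by a small margin (-0.17, adjusted p = 0.0285, interval -0.31 to -0.02). That call ended when batch sample 1 (adjusted p = 0.0988), batch sample 2 (0.0902), chemostat sample 4 (0.0571) or chemostat sample 8 (0.117) was left out, and after quantile normalization (0.0812).

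Differences within the lower tier did not pass. MIC10 and MIC60 differed in change by -0.01, with an interval of -0.22 to 0.21, and the groups overlapped on the array-by-array differences. For MIC12 the difference was 0.03 from MIC60 (interval -0.17 to 0.22) and 0.03 from MIC10 (interval -0.13 to 0.20). MIC19 differed by 0.08 from MIC60 (interval -0.11 to 0.27) and by 0.09 from MIC10 (interval -0.05 to 0.23). Without batch sample 2, in which MIC60 was low, the difference between MIC19 and MIC60 was 0.16 and passed (adjusted p = 0.0483). These intervals leave room for unequal changes of up to about 0.27 log2 units. Beyond the 10 pairs, the fit against MIC27 also held MIC12 and MIC19. MIC12 rose less than MIC27 (-0.57, adjusted p = 4.9e-05), as did MIC19 (-0.51, adjusted p = 2.68e-05). The pairs MIC12 with MIC19, MIC12 with MIC26 and MIC19 with MIC26 were not tested.

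**Figure D3:**
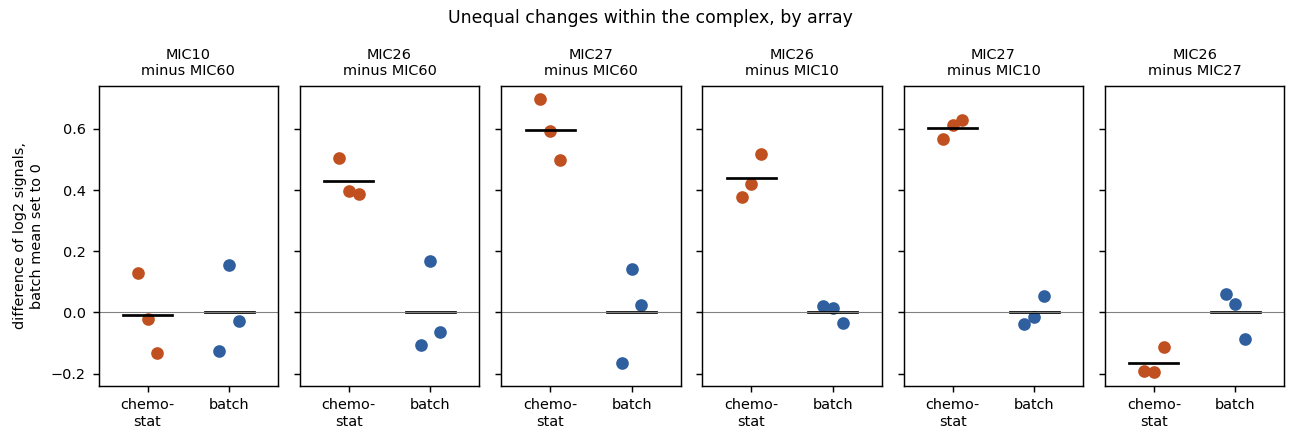
Difference of log2 signals between 2 MICOS genes on each array, with the mean of the 3 batch arrays set to 0 in each panel; lines are group means. MIC26 and MIC27 gained on MIC60 and MIC10 by 0.43 to 0.60 in chemostat, while MIC10 minus MIC60 overlapped between the groups.

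Within groups, the members moved little, and in chemostat the small gaps of MIC60 had the opposite sign to those of the other members. On chemostat sample 4, 5 of the 6 genes lay above the mean of samples 8 and 9, by up to 0.16 for MIC10, and MIC60 differed from it by -0.05. On samples 8 and 9, each set against the mean of the other chemostat samples, 5 of the 6 genes lay below and MIC60 lay above. The MIC60 gap was only 0.002 on sample 8 and 0.048 on sample 9. Such gaps of a gene cancel out over the 3 arrays of a group, so the signs on samples 8 and 9 partly follow from those on sample 4. In batch sample 1, 59 genes exceeded the mean of samples 2 and 3 by over 0.5 log2 units, and 9 fell short of it by as much. In the MICOS genes its gaps ran from -0.09 for MIC27 to 0.15 for MIC60, with 3 genes above and 3 below. The largest gap of any member on any array was -0.22, for MIC60 in batch sample 2. All 6 rises passed without any single array.

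The genes most like the members were found by the root mean square difference between profiles over the 6 arrays, each gene centred on its own mean. Closest to the mean profile of the 6 members were CTI6 (0.018 log2 units), COQ9 (0.018) and MSA2 (0.023). For MIC26 the nearest genes were DDI1 (0.028), GLC8 (0.037) and COX9 (0.039). MIC27 was most like RRT13 (0.020), CPA1 (0.027) and PET20 (0.035). Of the lower tier, MIC10 was nearest to HUA1 (0.013), CAB2 (0.020) and OPY2 (0.021), MIC12 to YGL262W (0.027), AIM39 (0.028) and ORM2 (0.028), MIC19 to ZNF1 (0.024), SYG1 (0.026) and TEN1 (0.026), and MIC60 to SKM1 (0.026), CLG1 (0.030) and PHR1 (0.033). No member had another member among its 3 nearest genes. The closest pair of members was MIC12 and MIC19, with 27 of 5448 genes closer to MIC12 and 35 closer to MIC19. MIC19 was also the nearest member to MIC10, with 94 genes closer. Between MIC26 and MIC27, 178 genes were closer to MIC26 and 74 closer to MIC27. The nearest member to MIC60 was MIC12, with 269 closer. The 6 arrays share 1 contrast, so such likeness mostly says that 2 genes changed by a similar amount.

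Cristae also depend on ATP synthase, whose dimers line the crista rims, and Mic10 is known to associate with those dimers. All 9 measured genes of its membrane subunits and inhibitor factors rose, with a median of 0.65, where 33.6% of all genes were called higher. STF2, encoding a factor that acts with the ATPase inhibitor, rose by 2.90 (SE 0.16, adjusted p = 9.79e-07). Its signals were 11.09, 11.23 and 11.16 in chemostat, against 8.68, 8.17 and 7.94 in batch, where sample 1 was highest. STF1 rose by 1.89 (SE 0.083) and INH1, the ATPase inhibitor itself, by 1.58 (SE 0.060). In the fit against MIC10, 6 of the 9 genes changed more than MIC10 and 3 did not pass, where 14.5% of all genes changed more and 71.2% changed less. The 3 that did not pass were ATP20, TIM11 and ATP19 (subunits g, e and k, which are specific to the dimer and are named after their values were seen), with rises of 0.42, 0.42 and 0.46. They differed from MIC10 by 0.04, 0.05 and 0.08. The 95% intervals, here from the fit against MIC10, were -0.16 to 0.25, -0.13 to 0.23 and -0.09 to 0.26 for the 3 genes. A change not told apart from that of MIC10 was not particular to these dimer subunits. The same held for 2 of the 8 other ATP synthase genes and 3 of the 18 genes of complexes III and IV. Over all genes, 85.7% differed in change from MIC10. In the fit against MIC27, the member with the largest change, 6 of the 9 genes changed less than MIC27 and 3 changed more. Over all genes, 89.4% changed less than MIC27 and 6.90% changed more. MIC10 and MIC27 had the smallest and largest changes of the complex. Genes with changes between theirs therefore tend to exceed MIC10 and fall short of MIC27 by this choice of references. Counts of partner genes against MIC10 and MIC27, here and below, were not among the planned comparisons.

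The other ATP synthase subunits rose in 8 of 8 cases, with a median of 0.74, led by ATP7 (0.93, SE 0.051), ATP14 (0.84, SE 0.061) and ATP16 (0.83, SE 0.049). Complexes III and IV had a median of 0.70 over 18 measured subunits, of which 17 rose and 1 did not pass. Both counts stand beside 33.6% of all genes called higher. QCR10 of complex III rose by 0.83 (SE 0.075), and COX7 and COX9 of complex IV by 0.79 (SE 0.065) and 0.76 (SE 0.047). The gene that did not pass was COX5B, the isoform used under low oxygen, at 6.30 in chemostat and 6.39 in batch (named after its value was seen). All 8 of these ATP synthase genes and 16 of the 18 of complexes III and IV had changes within the MICOS range of 0.37 to 0.98, which held 12.0% of all genes. In the fit against MIC10, 14 of the 18 changed more than MIC10, 1 changed less and 3 did not pass. Against MIC27, 16 of the 18 changed less and 2 did not pass. Of the 8 ATP synthase genes, 6 changed more than MIC10 and 2 did not pass. Against MIC27, 6 of these 8 changed less and 2 did not pass. Over all genes, 6.90% changed more and 89.4% changed less than MIC27. The error of MIC10 or MIC27 is shared by every gene in such a count.

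Contact partners of MICOS in the outer membrane moved the other way for the most part. Of 15 genes of the TOM and SAM translocases, the porins and OM14 and OM45, 11 fell and 4 rose, with a median of -0.31. Over all genes, 44.8% were called lower and 33.6% higher. OM45 rose by 4.09 (SE 0.058), at 10.87, 11.01 and 11.01 in chemostat, against 6.97, 6.85 and 6.81 in batch. OM14 rose by 3.09 (SE 0.056); both encode abundant outer membrane proteins. POR2, the minor porin, fell by 1.56 (SE 0.081). The other porin gene, POR1, rose by 0.72 (SE 0.056), at 12.16 in chemostat and 11.44 in batch (named after its value was seen). Against MIC10, 11 of the 15 changed less, 3 changed more and 1 did not pass, shares near those of all genes (71.2% less and 14.5% more). The inner membrane import list showed 7 of 12 lower, 2 higher and 3 not passing, with a median of -0.32. PAM18 and PAM16 of the import motor fell by 0.99 (SE 0.039) and fell by 0.62 (SE 0.040), and MGE1, the exchange factor of its Hsp70, fell by 0.73 (SE 0.055). TIM21, a subunit of the TIM23 translocase that binds the respiratory chain, rose by 0.42 (SE 0.050). Of these 12 genes, 11 changed less than MIC10, as did 71.2% of all genes, and 1 did not pass.

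Cardiolipin and phosphatidylethanolamine are the cone-shaped lipids of curved cristae membrane. Of their 10 synthesis and transport genes, 4 were higher, 3 were lower and 3 did not pass (median 0.06). The shares over all genes were 33.6% higher and 44.8% lower. CLD1, a phospholipase that acts on cardiolipin, rose by 1.74 (SE 0.045), at 8.60, 8.60 and 8.54 in chemostat and 6.88, 6.77 and 6.88 in batch. TAM41, which makes the precursor CDP-diacylglycerol, rose by 0.84 (SE 0.044). PSD1, the decarboxylase that makes phosphatidylethanolamine in mitochondria, fell by 0.94 (SE 0.051), at 8.34, 8.22 and 8.18 in chemostat and 9.13, 9.22 and 9.20 in batch. The groups did not overlap for CLD1 or PSD1, in opposite directions.

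Genes of mitochondrial fusion and fission had a median of 0.23, with rises in 5 of 8 genes, falls in 2 and no call in 1. For this list and the next, the shares over all genes were 33.6% higher and 44.8% lower. DNM1, the dynamin-related GTPase of fission, and FIS1, an outer membrane protein of fission, rose by 0.61 (SE 0.056) and 0.58 (SE 0.042). UGO1 of fusion rose by 0.32 (SE 0.035), and the fission adaptor CAF4 fell by 0.22 (SE 0.054). DNM1 and FIS1 changed more than MIC10 (by 0.23 and 0.21), 4 of the 8 genes changed less and 2 did not pass. Over all genes, 14.5% changed more than MIC10 and 71.2% changed less. Prohibitins and inner membrane proteases gave 4 of 8 higher, 1 lower and 3 not passing (median 0.09). MGR3 rose by 0.47 (SE 0.037) and the prohibitins PHB2 and PHB1 by 0.30 (SE 0.041) and 0.26 (SE 0.048), while YME1, the protease that Mgr3 serves as an adaptor, fell by 0.16 (SE 0.056).

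Contacts with the endoplasmic reticulum (the ERMES tether, GEM1 and LAM6) had a median of 0.21. Of these 6 genes, 4 were called higher, 1 was called lower and 1 had no call. The counts of this list and the following lists stand beside 33.6% of all genes called higher and 44.8% called lower. MDM34 rose by 0.48 (SE 0.039) and LAM6 by 0.23 (SE 0.043), whereas MMM1 fell by 0.29 (SE 0.047). GEM1, called higher, was below background in both groups (named after its value was seen), and MDM10 is in both this list and that of the outer membrane. The 6 further genes of inner membrane shape had a median of 0.15, with 3 rises, 2 falls and 1 without a call. MDM32 rose by 0.45 (SE 0.055) and MDM38 by 0.24 (SE 0.038), and SHE9, also called MDM33, fell by 0.27 (SE 0.042). Among the HAP activators, transcription factors of respiratory genes, 4 of 5 rose and 1 did not pass (median 0.33). HAP4, the activating subunit of the Hap2/3/4/5 complex, rose by 1.02 (SE 0.11), at 9.47, 9.65 and 9.78 in chemostat and 8.82, 8.43 and 8.61 in batch. HAP1 and HAP2 rose by 0.76 (SE 0.039) and 0.33 (SE 0.054).

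**Figure D4:**
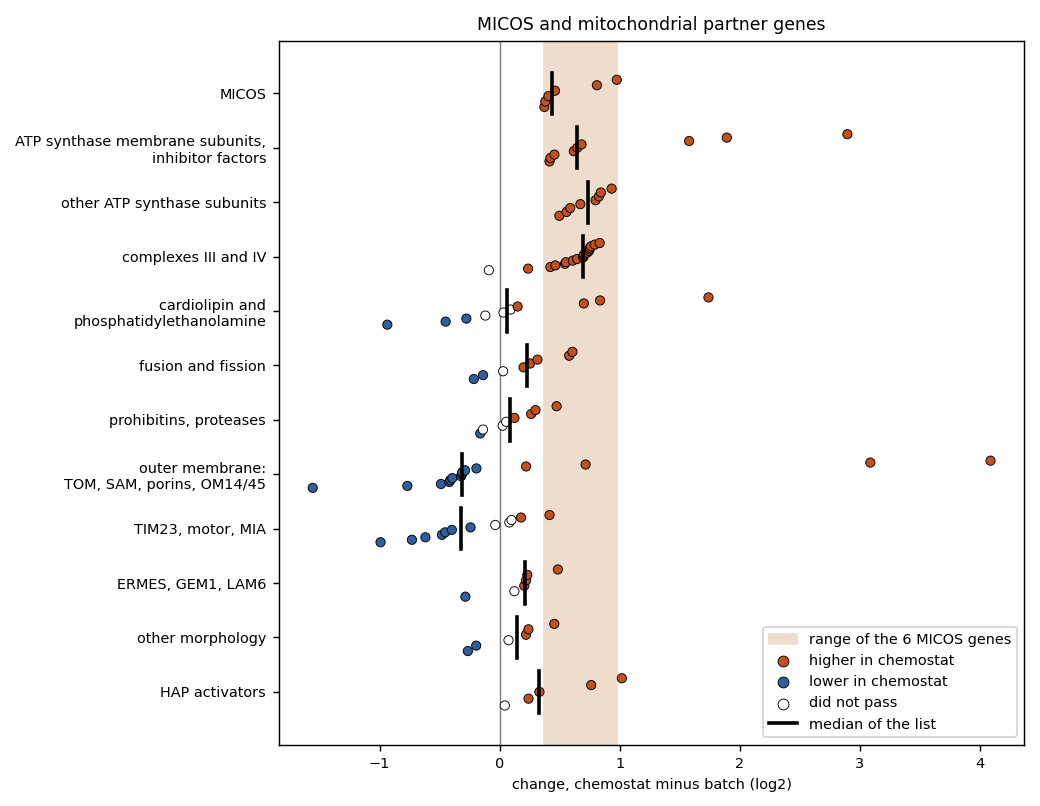
Log2 change, chemostat minus batch, of the MICOS genes and of 11 lists of mitochondrial partner genes (1 point per gene, coloured by limma's call, with the list's median as a bar and the range of the 6 MICOS genes shaded). Subunits of ATP synthase and of complexes III and IV fall mostly within the MICOS range, while the outer membrane list and the inner membrane import list have medians of -0.31 and -0.32.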

How the data were processed

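The authors deposited a log2 signal for every probe set on every array. They computed it with PLIER, per the submitters' processing notes, which give no version, background correction or step between arrays. The log scale and its base of 2 were inferred from the range of values. The signals were used unscaled and without a pseudocount.

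The table holds 10928 probe sets. A reference gene table of assembly R64, used for names and gene order only, matched 5498 of them to S. cerevisiae genes, and 1746 were assigned to S. pombe by a lower-case symbol. Where a gene had more than 1 probe set (47 genes), the one with the highest mean signal was kept. Chemostat was set against batch over 5449 genes with limma 3.58.1 (lmFit and eBayes, two-sided, no covariates) in R 4.3.3. The number of arrays limits the precision. COB was not analysed here, nor were promoter and protein sequences.

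Members, lists and tests were chosen with earlier results of these data known. Named in the text are the members; for each list the 3 called genes with the largest change and the largest called change in the other direction; and the 3 genes nearest to each profile. Names outside this rule are marked. Lists are described by counts and medians, without a test. Other settings tried were 3 normalizations (quantile, gene median, S. pombe median), removal of genes at background in both groups, eBayes with trend and robust options, weights per array, probe sets averaged per gene, a test of all probe sets, a threshold of 0.01, treat at 1.5-fold, and each array left out. The pair intervals from the all-gene prior variance were chosen after seeing the data. The scripts were tested on simulated data.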

Additional observations from a re-analysis of the deposited data

How the results depend on the processing

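The rises of the 6 MICOS genes kept their direction under all 16 other settings, and their call in 92 of 96 cases. The 4 exceptions were MIC10, MIC12, MIC19 and MIC60 in limma's treat at 1.5-fold, a test for a larger change, where 2 MICOS genes were called instead of 6. In that test 0 of 10 pairs differed (limma's treat, also 0 at an unadjusted p under 0.05; 5 by the main test), 1165 genes were called (601 higher and 564 lower) in place of 4271, and 19 partner genes were higher and 4 lower in place of 63 and 27. Without any 1 array, MIC27 rose by 0.94 to 1.01, MIC26 by 0.79 to 0.83 and MIC60 by 0.31 to 0.43, and between 4 and 5 pairs differed. Quantile normalization also left 4, as did an adjusted p under 0.01; the pair lost was MIC26 with MIC27, and the cause was not tested. Differences that did not pass changed sign in 7 cases. With array weights MIC12 minus MIC60 was -0.026. Without any 1 array the ranges were -0.077 to 0.069 for MIC10 minus MIC60, -0.043 to 0.106 for MIC12 minus MIC60 and -0.021 to 0.086 for MIC12 minus MIC10. No paired analysis was possible because the groups share no replicate number.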

Other observations

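The genes next to the MICOS genes on their chromosomes were looked up in the order of protein-coding genes of the reference table, after the members' values were seen. Of 12 neighbours 11 were measured, of which 4 were higher in chemostat, 5 lower and 2 not called. These counts lie near the shares over all genes, 33.6% called higher and 44.8% called lower. SPG1, a stationary phase gene that lies beside MIC26, had a mean of 10.56 ± 0.19 in chemostat and lay below background in batch (5.81 ± 0.14), at least 24.2-fold higher (limma adjusted p = 7.22e-09). YHB1, the flavohemoglobin gene on the other side of MIC26, fell by 0.68 (SE 0.093, adjusted p = 0.000197). Beside MIC12, TAE1 fell by 1.03 (SE 0.056, adjusted p = 8.82e-07) and SHM1, the mitochondrial serine hydroxymethyltransferase, fell by 0.31 (SE 0.037). Both neighbours of MIC27 fell, since AVT4 fell by 0.33 (SE 0.051) and OCA1 fell by 0.35 (SE 0.046). HEL1, next to MIC60, rose by 0.63 (SE 0.050), and UBP6, next to MIC19, by 0.18 (SE 0.038). DCV1, also next to MIC19 and called higher, was below background in both groups.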
